A study of Drosophila melanogaster with 11 samples.

Results

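The midgut lipase genes described here are 9 genes for secreted triglyceride lipases of the *Drosophila* midgut, *CG6295*, *CG17192*, *CG6283*, *CG6277*, *CG6271*, *CG17191*, *mag*, *CG8093* and *CG31091*. They were chosen by name as 9 of the 14595 genes of the gene expression table, by a rule that used names only, although earlier results of these data were known. Their transcripts were measured by RNA-seq in diploid cells sorted from whole midguts of 5-day-old adult females. Each fly carried *esg*>GAL4, tubGAL80.ts, UAS-RFP and nre-GFP, so that intestinal stem cells (ISCs) were RFP+ and enteroblasts (EBs), their enterocyte-directed daughters, were RFP+ and GFP+. SPEN-EB and SPEN-ISC cells also carried UAS-*spen* RNAi, and WT-EB and WT-ISC cells did not. All flies were shifted for 2 days from 18 to 29 °C, which released GAL4, and there were 3 libraries each of SPEN-EB, SPEN-ISC and WT-ISC and 2 of WT-EB. Because *esg*>GAL4 is active in ISCs and EBs alike, *spen* was targeted in both cell types, with 1 RNAi line. The authors left out a further WT-EB library that did not group with the other WT-EB libraries, so the spread in WT-EB may be too small and p-values against it too low.

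Dietary triglyceride is split in the gut lumen by lipases that the absorptive enterocytes secrete, and the released fatty acids are taken up and rebuilt into lipid for export. In flies, much of this activity belongs to neutral and acid lipases. The neutral lipases are related to mammalian pancreatic lipase and include the clustered *CG6295* group, and the acid lipases are related to mammalian gastric and lysosomal lipases and include *magro* (*mag*). Magro digests triglyceride and also cleaves cholesterol esters. ISCs and EBs are not the cells known for this secretion, and the genes of the set were therefore compared across the 4 groups beside enterocyte markers.

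The neutral lipase genes of the set lay together. In the authors' annotation of genome release BDGP5, 6 members were placed in 20.2 kb of chromosome arm 3R, all on the minus strand and each with 1 intron of 54 to 70 bases. In order of coordinate they were *CG6295* (FBgn0039471, 3R, 22831621 to 22832777), *CG17192* (FBgn0039472, 22842902 to 22844009), *CG17191* (FBgn0039473, 22844330 to 22845473), *CG6283* (FBgn0039474, 22845960 to 22847100), *CG6277* (FBgn0039475, 22847793 to 22848939) and *CG6271* (FBgn0039476, 22850690 to 22851831). A gap of 10124 bases separated *CG6295* from *CG17192*, whereas the next 4 gaps were of 320 to 1750 bases. The whole cluster fell within the span of *NepYr*, a gene of the opposite strand that had at most 1.00 FPKM in any library. On one side the nearest gene was *CG6296*, a further neutral lipase gene 429 bases from *CG6295*, and on the other it was *TwdlT*, a cuticle protein gene that was at 0 in all 11 libraries. The acid lipase genes were dispersed, with *CG31091* (FBgn0051091) at 3R, 21725625 to 21727894, on the plus strand, *mag* (FBgn0036996) at 3L, 20453783 to 20455374, on the plus strand, and *CG8093* (FBgn0033999) at 2R, 11101786 to 11103191, on the minus strand. *mag* lay inside *CG5195*, a gene of the opposite strand with at most 0.0885 FPKM. The counting was strand-specific, so reads of these opposite-strand neighbours were not added to the lipases.

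**Figure D1:**
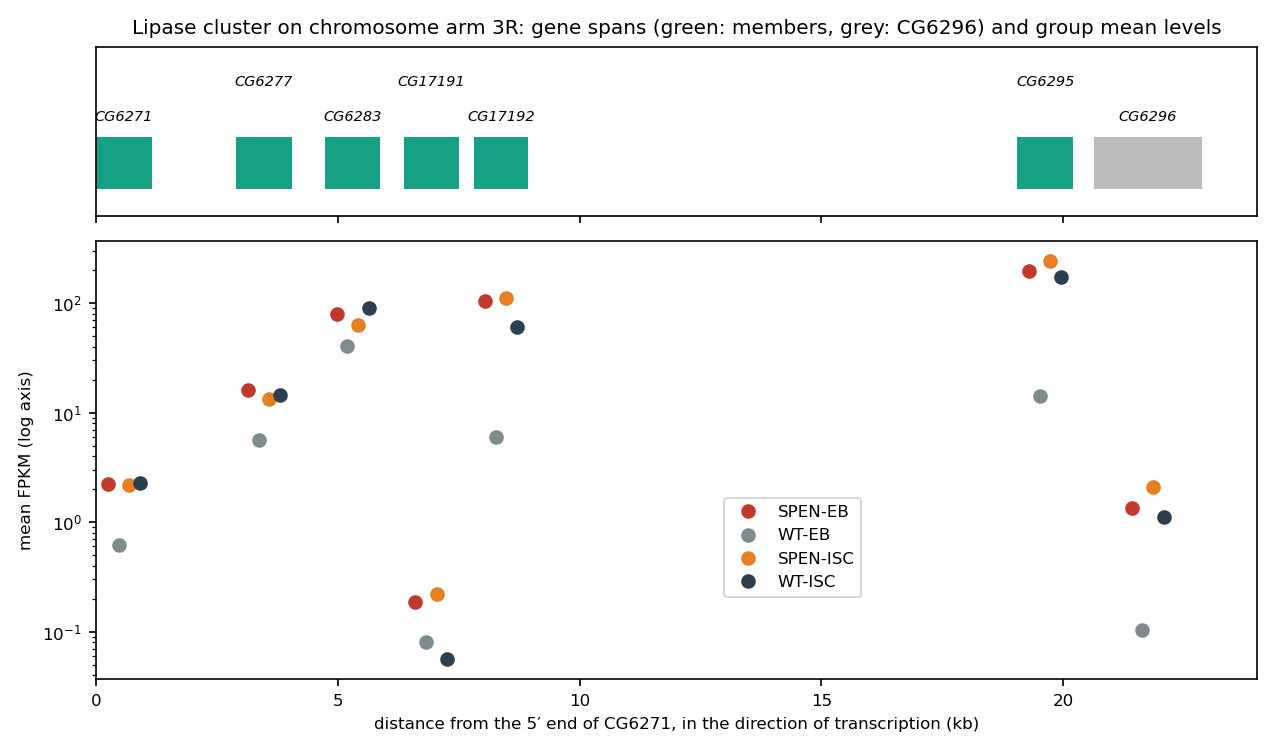
Gene spans of the lipase cluster (upper panel, distance in kb from the 5′ end of *CG6271*) and the mean FPKM of each gene in each group (lower panel, log axis, 1 point per group). *CG17191* had at most 0.271 FPKM in any library, and WT-EB (grey) had the lowest mean deposited FPKM of the 4 groups at every gene shown but *CG17191*. After scaling this no longer held for *CG6283*, whose SPEN-ISC mean was lowest (46.1 against 65.6 FPKM in WT-EB).

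Library depth was similar, with 28206027 to 31991452 counts on exon bins. FPKM (fragments per kilobase of exon and per 1e6 reads) are given as deposited, whereas fold changes come from log2(FPKM + 0.5) after the libraries were scaled to a common level, and the 2 scales can differ. Without the scaling, the median log2 difference of all tested genes was 0.66 in SPEN-EB against WT-EB and also in WT-ISC against WT-EB, so that most genes have higher printed FPKM than in WT-EB. The targeted gene *spen* had 0.920 to 2.24 FPKM in SPEN-EB against 0.115 to 0.147 in WT-EB, and 1.61 to 5.04 FPKM in SPEN-ISC against 0.255 to 0.620 in WT-ISC. The RNAi construct itself carries *spen* sequence that is read as *spen*, so these values do not check the knockdown. The progenitor marker *esg*, whose promoter region drove the sort, was present in every library but varied between 4.20 and 100.03 FPKM, and the enterocyte marker *Myo31DF* was present in every library too, at 9.71 to 26.4 FPKM in SPEN-EB against 5.84 and 6.07 in WT-EB, and at 13.9 to 32.5 FPKM in SPEN-ISC against 8.07 to 56.3 in WT-ISC. These *Myo31DF* values are before scaling, and the gene did not pass the test of SPEN-EB against WT-EB described below, with or without scaling. The enterocyte factor *nub* had at most 0.385 FPKM, *pros* of enteroendocrine cells at most 0.284 and *Mhc* of muscle at most 0.457. Low *pros* did not mean few enteroendocrine transcripts, since the 14 markers of these cells summed to 1395 to 2550 FPKM in WT-ISC.

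As a group, the lipases had the lowest deposited FPKM in WT-EB. Their summed level was 403, 411 and 453 FPKM in SPEN-EB, against 38.2 and 108 FPKM in WT-EB. It was 621, 535 and 250 FPKM in SPEN-ISC, against 464, 428 and 239 FPKM in WT-ISC. Every library of the other 3 groups thus lay above both WT-EB libraries on this scale, while the SPEN-ISC and WT-ISC ranges overlapped. After scaling, the sums were 347 to 485 in SPEN-EB against 77.6 and 172 in WT-EB, and 149 to 569 in SPEN-ISC against 212 to 649 in WT-ISC, so that SPEN-ISC replicate 3 lay below WT-EB replicate 3. *CG6295* and *CG17192* together made up 50.3% to 84.8% of the sum in SPEN-EB, 15.4% and 61.8% in WT-EB, 66.7% to 88.6% in SPEN-ISC and 19.0% to 81.2% in WT-ISC. The lowest of these shares, in WT-EB replicate 3 and WT-ISC replicate 3, were found where *CG6283* supplied 69.1% and 49.9% of the sum.

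**Figure D2:**
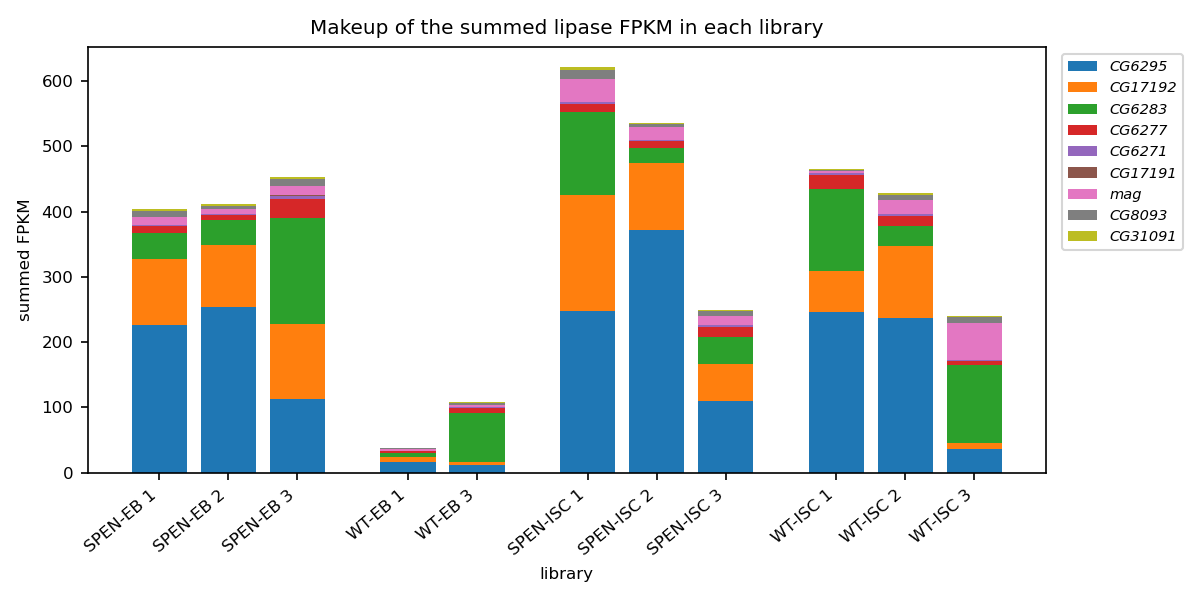
Summed FPKM of the 9 lipase genes in each library, with the part of each gene stacked (bars start at 0, 1 bar per library). The WT-EB bars reach 38.2 and 108 FPKM and all other bars 239 FPKM or more before scaling, and the *CG6283* part (green) varies in size between libraries of the same group.

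The sum rested on few genes. *CG6295* was the most abundant member in SPEN-EB (198 ± 74.5 FPKM, SD, n = 3), SPEN-ISC (243 ± 130.4 FPKM, n = 3) and WT-ISC (173 ± 119 FPKM, n = 3), and came after *CG6283* in WT-EB (14.1 ± 3.23 against 40.4 ± 48.5 FPKM, n = 2). The mean of *CG6295* ranked 282 of 14595 genes in SPEN-EB, against 1741 in WT-EB, and 267 in SPEN-ISC, against 322 in WT-ISC. *CG17192* ranked 512 in SPEN-EB, against 2689 in WT-EB. Neighbours in the order of levels mostly overlapped. In SPEN-EB, *CG6295*, *CG17192* and *CG6283* overlapped in turn and all lay above *CG6277*, and in WT-ISC no pair of neighbours was separate above *CG31091* and *CG17191*. *CG6271* and *CG31091* were the lowest of the tested members in every group.

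**Figure D3:**
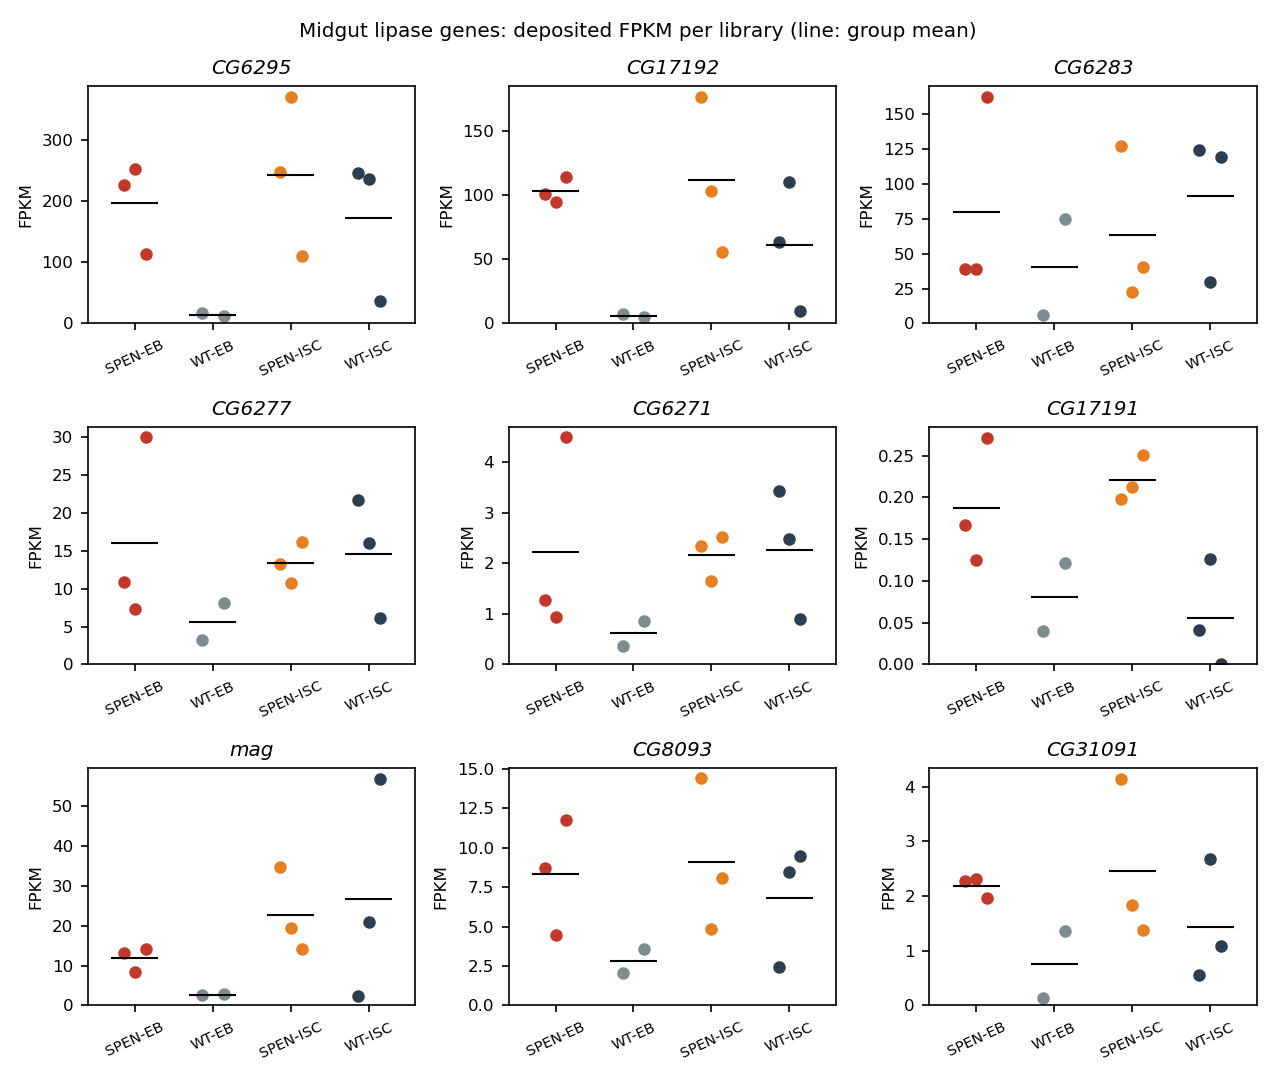
Deposited FPKM of each lipase gene in every library (points) with the group mean (line), on a linear axis from 0 for each gene. For *CG6295*, *CG17192* and *mag* all SPEN-EB points are above both WT-EB points by a wide margin, whereas for *CG6283* and *CG6277* the groups overlap.

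In EBs, *spen* RNAi was compared with the wild type. Of the 9 lipase genes, *CG17192*, *CG6295* and *mag* rose in SPEN-EB, none fell, 5 did not pass the test and *CG17191* was too low to be tested. Of all 5763 genes tested, 372 (6.45%) passed, 221 of them (3.83%) higher and 151 lower in SPEN-EB. Without scaling, 928 were higher and 39 lower. Genes passed when the limma p-value, adjusted over all tested genes, was under 0.05. The median log2 difference was 0.81 over the 8 tested lipases and −0.05 over all genes tested.

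*CG17192* had 101.3, 94.8 and 114 FPKM in SPEN-EB, against 7.21 and 4.87 FPKM in WT-EB. The libraries of SPEN-EB were close to each other and far above those of WT-EB. After scaling, the fold change was 9.66 (95% interval 5.51 to 17.0), or 3.27 ± 0.40 on the log2 scale (SE), with an adjusted p of 8.5e-07. *CG6295* had 227, 254 and 113 FPKM in SPEN-EB, against 16.4 and 11.8 FPKM in WT-EB. All 3 SPEN-EB libraries were above both WT-EB libraries, and SPEN-EB replicate 3 had less than the other 2. The fold change was 7.70 (95% interval 3.95 to 15.0), with an adjusted p of 0.00027. Without SPEN-EB replicate 1, *CG6295* missed the threshold (log2 difference 2.87, adjusted p = 0.077), as it did without a filter on low values (adjusted p = 0.083). With all 11 libraries in one fit, both genes missed it, with an adjusted p of 0.11 for *CG17192* and 0.18 for *CG6295*.

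*mag*, the acid lipase that also cleaves cholesterol esters, had 13.2, 8.46 and 14.2 FPKM in SPEN-EB, against 2.65 and 2.75 FPKM in WT-EB. The groups were separate and the fold change was 2.35 (95% interval 1.41 to 3.93, adjusted p = 0.034). This call was near the threshold and was lost when any 1 of the 5 libraries was left out, with an adjusted p of 0.054 without SPEN-EB replicate 2, 0.054 without replicate 3, 0.057 without replicate 1, 0.25 without WT-EB replicate 1 and 0.40 without WT-EB replicate 3. It was also lost in edgeR's test of exon counts (adjusted p = 0.067).

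*CG6283* did not pass and its libraries disagreed. It had 38.7, 38.9 and 162 FPKM in SPEN-EB, against 6.13 and 74.7 FPKM in WT-EB. WT-EB replicate 3 thus lay above both SPEN-EB replicate 1 and replicate 2, and the interval of the log2 difference ran from −3.10 to 4.61. The value was −0.83 without WT-EB replicate 1 and 2.34, with an adjusted p of 0.0097, without WT-EB replicate 3. *CG6277*, its neighbour in the cluster, had 10.9, 7.31 and 30.001 FPKM in SPEN-EB, against 3.18 and 8.06 FPKM in WT-EB, and these ranges overlapped (log2 difference 0.60, 95% interval −0.32 to 1.52, and 0.14 without SPEN-EB replicate 3, 0.15 without WT-EB replicate 1 and 1.05 without WT-EB replicate 3). As for *CG6283*, replicate 3 was the higher library in both groups.

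The remaining tested members had log2 differences of 0.61 to 0.87 whose intervals included 0. *CG31091*, the highest of them, had 0.091 without WT-EB replicate 1 and 1.69 without WT-EB replicate 3, and *CG6271* had 0.36 without WT-EB replicate 1. *CG31091* had 2.28, 2.32 and 1.96 FPKM in SPEN-EB, against 0.140 and 1.36 FPKM in WT-EB. *CG8093* had 8.74, 4.45 and 11.8 FPKM in SPEN-EB, against 2.07 and 3.61 FPKM in WT-EB. *CG6271* had 1.27, 0.930 and 4.48 FPKM in SPEN-EB, against 0.362 and 0.865 FPKM in WT-EB. For each of these genes the deposited values were separate between the groups, whereas after scaling all 3 overlapped, with at least 1.66 against up to 2.16 FPKM for *CG31091*, 5.24 against 5.73 for *CG8093* and 1.09 against 1.37 for *CG6271* in SPEN-EB and WT-EB. Such separation was common in these tables, since 6 of the 8 tested lipases but also 47.4% of all tested genes had a higher FPKM in every SPEN-EB library than in every WT-EB library. Without scaling, *CG6277* and *CG8093* also passed, with adjusted p-values of 0.028 and 0.035.

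**Figure D4:**
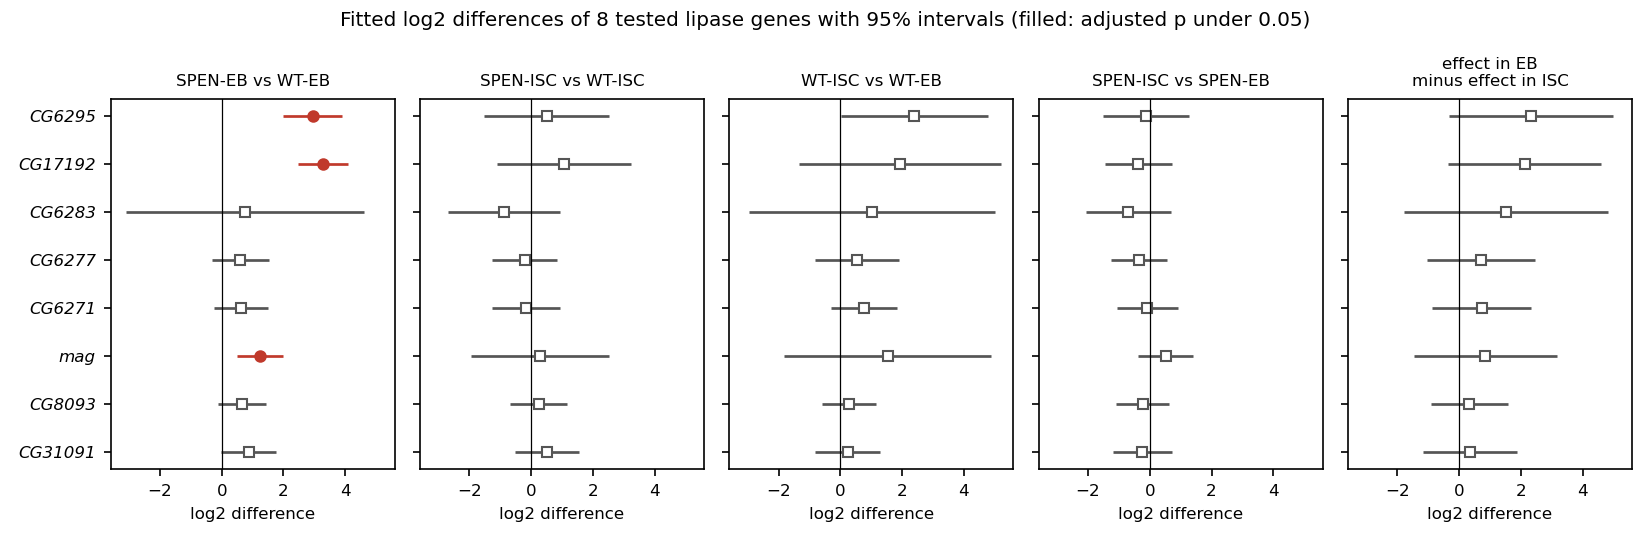
Fitted log2 differences (points) with 95% intervals (lines) of the 8 tested lipase genes in each comparison, first-named group minus second, and of the *spen* RNAi effect in EBs minus that in ISCs. Filled red points passed (adjusted p under 0.05), and only *CG6295*, *CG17192* and *mag* in SPEN-EB against WT-EB did.

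In ISCs, the same RNAi was compared with the wild type. No lipase gene passed, among 7 of 6346 tested genes that did (0.11%, 2 higher and 5 lower in SPEN-ISC, and 2 higher and 0 lower without scaling). None of the 8 tested lipases had an unadjusted p under 0.05, and none passed in edgeR or DESeq2, where 214 genes in all had such a p in limma. *CG6295* had 248, 371 and 111 FPKM in SPEN-ISC, against 246, 237 and 36.3 FPKM in WT-ISC. *CG17192* had 177, 103 and 55.9 FPKM in SPEN-ISC, against 63.4, 110.4 and 9.33 FPKM in WT-ISC. For both genes replicate 3 was the lowest library in either genotype, and the groups overlapped. The log2 differences of the 8 genes lay between −0.88 for *CG6283* and 1.06 for *CG17192*, with standard errors of 0.44 to 0.94. The 95% intervals of the fold change were 0.35 to 5.77 for *CG6295*, 0.46 to 9.41 for *CG17192*, 0.26 to 5.80 for *mag* and 0.15 to 1.91 for *CG6283*. Differences of several fold thus lay within the intervals of these genes. For the other tested genes the intervals were narrower, from 0.42 at the lowest to 2.96 at the highest.

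The spread was widest for *mag*. It had 34.6, 19.4 and 14.2 FPKM in SPEN-ISC, against 2.42, 21.0 and 56.8 FPKM in WT-ISC. WT-ISC replicates 1 and 3 were thus the lowest and the highest of all 11 libraries, at a ratio of 23.5. *CG6283* had 127, 22.3 and 40.7 FPKM in SPEN-ISC, against 124, 29.6 and 119 FPKM in WT-ISC, and replicate 2 was the lowest in both groups. *CG6277* had 13.3, 10.7 and 16.1 FPKM in SPEN-ISC, against 21.7, 15.99 and 6.14 FPKM in WT-ISC, and *CG8093* had 14.4, 4.82 and 8.07 FPKM in SPEN-ISC, against 2.44, 8.47 and 9.48 FPKM in WT-ISC. The groups overlapped for both. *CG6271* had 2.34, 1.64 and 2.51 FPKM in SPEN-ISC, against 3.42, 2.48 and 0.894 FPKM in WT-ISC, and *CG31091* had 4.14, 1.83 and 1.38 FPKM in SPEN-ISC, against 0.548, 2.67 and 1.08 FPKM in WT-ISC. These groups overlapped as well.

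The wild-type cell types were then compared with each other. No lipase passed in WT-ISC against WT-EB, where 194 of 5898 genes did (3.29%, 142 higher and 52 lower in WT-ISC, and 90 higher and 7 lower without scaling) and 796 had an unadjusted p under 0.05. The fitted log2 differences of all 8 tested lipases were above 0, with a median of 0.89 against −0.06 over all tested genes. *CG6295* was the only one with an unadjusted p under 0.05 (log2 difference 2.39 ± 0.98, SE, adjusted p = 0.37). The deposited WT-ISC values of *CG6295*, *CG17192* and *CG6271* were above both WT-EB values in all 3 libraries, as for 38.1% of all tested genes. After scaling the groups overlapped for each of these genes. WT-ISC had at least 32.0 FPKM of *CG6295* against up to 33.3 in WT-EB, 8.24 against 14.7 for *CG17192* and 0.790 against 1.37 for *CG6271*. WT-ISC replicate 3, which had 36.3 FPKM of *CG6295* and 9.33 FPKM of *CG17192*, was the library nearest to WT-EB for both. Without it, the log2 differences were 3.33 (adjusted p = 4.9e-05) and 2.98 (adjusted p = 3.6e-05). *CG6295* also passed without WT-ISC replicate 1 (1.53, adjusted p = 0.016) and without WT-EB replicate 1 (2.70, adjusted p = 0.046), *mag* without WT-ISC replicate 1 (2.36, adjusted p = 3.2e-08) and *CG6283* without WT-EB replicate 3 (2.47, adjusted p = 0.047). DESeq2 called *CG6295* and *CG17192* (adjusted p of 0.00152 and 0.015), a filter at 5 FPKM in place of 1 gave *CG6295* (adjusted p = 0.0010007), and edgeR called no lipase. A replicate block, for numbers that were not taken as pairing, gave 4 lipases.

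No lipase passed in SPEN-ISC against SPEN-EB, where 44 of 6247 genes did (0.704%, of which 36 were higher in SPEN-ISC and 8 lower). An unadjusted p under 0.05 was found for 389 genes but for none of the 8 tested lipases, and none passed in edgeR or DESeq2. The log2 differences ran from −0.69 for *CG6283* to 0.51 for *mag*, and their 95% intervals together covered −2.07 to 1.41. *mag* was the only tested member whose deposited values were separate between the groups. It had 34.6, 19.4 and 14.23 FPKM in SPEN-ISC against 13.2, 8.46 and 14.22 FPKM in SPEN-EB, where the nearest libraries were almost equal. After scaling these groups overlapped, since the lowest SPEN-ISC library had 8.47 FPKM and the lowest SPEN-EB library 9.98 FPKM. The share of all tested genes with such separation was not computed for this comparison.

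Whether *spen* RNAi acted differently in EBs and ISCs was tested directly, on all 11 libraries. For *CG6295* the effect in EBs exceeded that in ISCs by 2.33 ± 1.23 on the log2 scale (SE, unadjusted p = 0.082), and for *CG17192* by 2.12 ± 1.14 (unadjusted p = 0.086). For *mag* the excess was 0.85 ± 1.06. None of the 8 genes passed, and neither did any of the 6791 genes tested (0% called, 115 with an unadjusted p under 0.05, 0 calls in edgeR and 3 in DESeq2). The calls in EBs and their absence in ISCs are thus not shown to differ.

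Members of the cluster did not keep fixed proportions. The ratio of *CG6277* to *CG6271* varied least, from 6.69 to 8.56 in SPEN-EB, 8.78 and 9.32 in WT-EB, 5.69 to 6.55 in SPEN-ISC and 6.33 to 6.87 in WT-ISC. The ratio of *CG6295* to *CG17192* varied from 0.992 to 3.89 over the 11 libraries. The ratio of *CG6283* to *CG6277*, whose gene spans are 692 bases apart, varied from 1.85 to 19.4, and that of *CG6295* to *CG6283* from 0.158 to 16.7. Within WT-EB alone, where *CG6295* differed 1.39-fold between the libraries, *CG6283* differed 12.2-fold.

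*CG17191*, between *CG17192* and *CG6283*, was nearly silent. In its 1026-base exon bin it had 4, 3 and 7 counts in SPEN-EB, against 1 and 3 in WT-EB. In SPEN-ISC it had 5, 5 and 6 counts there, against 1, 3 and 0 in WT-ISC. These counts correspond to at most 0.271 FPKM and did not enter any test. *CG6296*, at the other end of the cluster, had 0.681 to 2.00 FPKM in SPEN-EB against 0.0810 and 0.125 FPKM in WT-EB, and 0.50003 to 3.601 FPKM in SPEN-ISC against 0.193 to 2.85 FPKM in WT-ISC. It too was below the level needed for the test in EBs, and when the filter was applied to deposited FPKM it was tested and passed (log2 difference 1.23, adjusted p = 0.049).

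Counts were spread unevenly over the exon bins of the members in a few places. The short 5′ exon of *CG6295*, *CG17192*, *CG6283* and *CG6277* held 14.4% to 15.4% of the counts of each gene over all libraries, at 4.28% to 6.45% of its exon length. These exons, of 45 to 70 bases, are shorter than a read, and a read that spans several bins can be counted in each. The higher share is thus not shown to reflect uneven coverage. The 61-base 5′ exon of *CG6271* held 3 of 514 counts (0.584%). The counts of *CG6271* thus came almost entirely from its second exon. The authors' aligner kept 1 position for a read that matched several, and whether reads from a related gene such as *CG6277* were placed on *CG6271* was not tested. In *CG31091*, the first 652 bases of the annotated gene held 0 of 1072 counts, whereas its other 3 bins held 171, 446 and 455. Those 652 bases were 30.3% of the exon length of *CG31091*. The bins of *mag* held counts roughly in proportion to length, with 61.3% of the counts on 56.5% of the length.

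Few other lipase genes were high enough to be tested, and the counts below stand beside 6.45% of all genes called in EBs, a share at which few calls fall on lists of this size. Of 24 further genes of the neutral lipase family, 21 were in the table, 3 could be tested in EBs and 0 passed. They were *CG10163* (2.27 ± 1.87 FPKM in SPEN-EB, n = 3, against 0.374 ± 0.170 FPKM in WT-EB, n = 2), *CG17292* (10.7 ± 4.61 against 8.41 ± 0.303 FPKM) and *CG10116* (25.2 ± 12.4 against 10.4 ± 0.0211 FPKM). Without SPEN-EB replicate 3, *CG10163* passed (log2 difference 1.47, adjusted p = 0.012). Of 18 further acid lipase genes in the table, *Lip4* alone could be tested and did not pass (log2 difference −0.995, adjusted p = 0.12), although it did without SPEN-EB replicate 2 (−1.24, adjusted p = 0.035). The intracellular lipases *bmm*, the fly adipose triglyceride lipase, and *Hsl*, the hormone-sensitive lipase, did not pass either. In WT-ISC against WT-EB, *Lip4* was lower in WT-ISC (log2 difference −1.94, adjusted p = 0.0078), and none of these genes passed in the other comparisons. *bmm* had 16.3, 2.14 and 2.27 FPKM in SPEN-EB, against 1.47 and 1.59 FPKM in WT-EB. Replicate 1 of SPEN-EB stood apart, and without it the log2 difference of *bmm* was −0.14.

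Among 30 genes for uptake and export of lipid by enterocytes, 17 could be tested in EBs, 0 passed and 14 had a log2 difference above 0 (median 0.60). *Npc1a*, *Npc2a* and *Npc2d*, members of the sterol-binding Niemann-Pick type C families, had the smallest p-values. *Npc2d* had 8.16, 6.03 and 16.9 FPKM in SPEN-EB, against 2.93 and 1.67 FPKM in WT-EB (adjusted p = 0.069). *Npc2a* was abundant in both groups, at 570, 792 and 1142 FPKM in SPEN-EB against 973 and 943 FPKM in WT-EB, with a log2 difference of −1.02 after scaling (adjusted p = 0.11). Without SPEN-EB replicate 2 both passed, with an adjusted p of 0.0021 for *Npc2a* and 0.046 for *Npc2d*, and over the 5 leave-outs 7 genes of the list passed at least once. Without scaling, *Npc1a* and *Npc2d* passed (adjusted p of 0.0061 and 0.0016), as did further genes of this list. With a replicate block, *Npc2a* and *Npc2d* passed (adjusted p of 0.040 and 0.036), as did a further gene of the list. Of 18 genes for factors that have been linked to control of gut lipases or nutrient responses, 8 could be tested in EBs and *sug* rose. *sug* encodes sugarbabe, a zinc finger factor of the response to dietary sugar, and had 1.70, 1.498 and 2.52 FPKM in SPEN-EB against 0.164 and 0.225 FPKM in WT-EB (log2 difference 1.39 ± 0.39, SE, adjusted p = 0.027). Its adjusted p was 0.38 without WT-EB replicate 1 and 0.33 without WT-EB replicate 3. The nuclear receptor *Hnf4* (adjusted p = 0.16) and the gut GATA factor *GATAe* (adjusted p = 0.17) did not pass, although *GATAe* did without SPEN-EB replicate 2 (1.41, adjusted p = 0.013), and both did without scaling (adjusted p of 0.022 for *Hnf4* and 0.013 for *GATAe*). Outside this comparison the one call among both lists was *Npc2b*, named after its values were seen, which was higher in WT-ISC than in WT-EB (log2 difference 2.24, adjusted p = 0.0078).

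Many enterocyte genes, mostly for digestive enzymes, moved in the same direction as the lipases. Of 41 enterocyte genes, 36 were tested in SPEN-EB against WT-EB, 20 rose and 0 fell, beside 3.83% of all tested genes that were higher, with a median log2 difference of 1.40. The list was chosen with earlier results of these data known, so setting it beside that share is a description and not an independent test. The count of 20 became 14 without either WT-EB replicate, 17 to 19 without a SPEN-EB replicate, 10 without a filter on low values and 4 in the fit of all 11 libraries. That count was 15 in edgeR, 24 in DESeq2 and 32 without scaling. The count of 0 became 1, *Jon44E*, without SPEN-EB replicate 2 or 3, with a replicate block and with a filter at 5 FPKM (log2 differences of −2.03 to −1.32). The log2 difference of *Jon44E*, a gene named after its values were seen, was −2.19 without WT-EB replicate 1. The digestive proteases led, with *Jon74E* at 67.6, 45.9 and 63.0 FPKM in SPEN-EB against 3.09 and 2.48 FPKM in WT-EB, and *alphaTry* at 1590.0, 1683 and 1493 FPKM in SPEN-EB against 103 and 138 FPKM in WT-EB. The maltases *Mal-A1*, *Mal-A2*, *Mal-A7* and *Mal-A8* also rose, with log2 differences of 1.29 to 2.44. The enterocyte marker *Myo31DF* did not pass, and *nub*, at most 0.385 FPKM in any library, was too low to be tested. The summed FPKM of the 41 genes was 6459 to 8177 in SPEN-EB, against 780 and 1170 in WT-EB (6236 to 7616 against 1586 and 1860 after scaling), and 4937 to 15125 in SPEN-ISC, against 3939 to 8815 in WT-ISC. In WT-ISC against WT-EB, 6 of 35 tested enterocyte genes were higher in WT-ISC and 0 were lower, beside 2.41% of all tested genes that were higher, and leaving out a library gave 0 to 20 higher. Expressed as a percentage of this sum, the lipases amounted to 5.53% to 6.36% in SPEN-EB, 4.89% and 9.24% in WT-EB, 4.10% to 5.6001% in SPEN-ISC and 3.80% to 11.8% in WT-ISC. The lipase share of SPEN-EB thus lay between those of the WT-EB libraries. In pooled cells, RNA from more enterocyte-like cells and more of these transcripts per EB cannot be told apart.

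**Figure D5:**
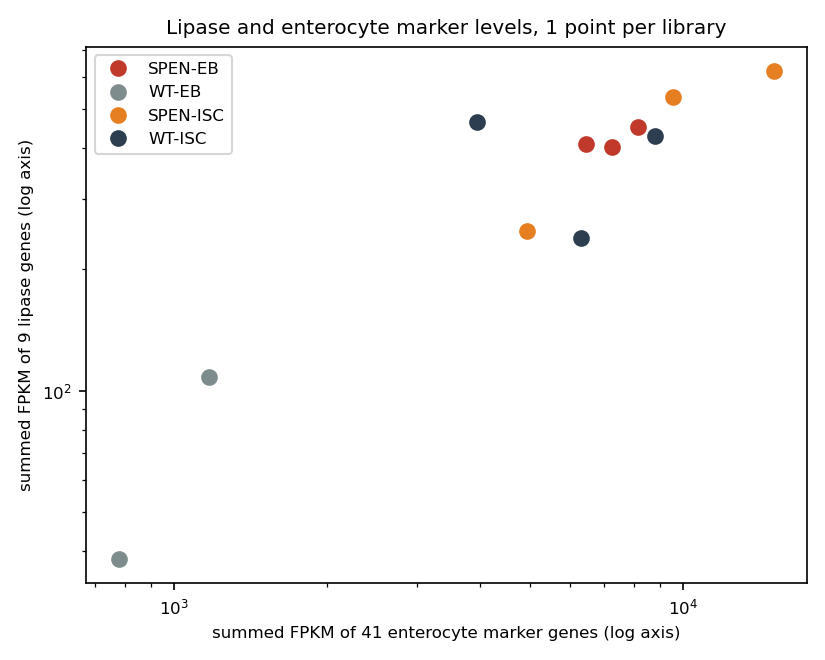
Summed FPKM of the 9 lipase genes against that of 41 enterocyte marker genes (both log axes, 1 point per library, coloured by group). The WT-EB libraries lie at 780 and 1170 FPKM of markers and 38.2 and 108 FPKM of lipases, below all other libraries on both axes before scaling. After scaling the lipase sum of WT-EB replicate 3 (172) was above that of SPEN-ISC replicate 3 (149).

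Other cell types were checked in the same way. The summed progenitor markers were 2332 to 3125 FPKM in SPEN-EB against 1142 and 1174 in WT-EB, and 3391 to 5598 FPKM in SPEN-ISC against 1401 to 2076 in WT-ISC, with 1 of 7 tested genes, *E(spl)malpha-BFM*, a Notch target called higher in SPEN-EB near the threshold (adjusted p = 0.047, 831 ± 349 FPKM, n = 3, against 194 ± 39.3 FPKM in WT-EB, n = 2). That call was lost in 10 alternatives, with an adjusted p of 0.46 without WT-EB replicate 1, 0.36 without WT-EB replicate 3, 0.088 without SPEN-EB replicate 1 and 0.063 without SPEN-EB replicate 3. After scaling, the progenitor sums of SPEN-EB (2140 to 2749) and WT-EB (1815 and 2388) overlapped. Enteroendocrine markers summed to 8.74 to 16.3 FPKM in SPEN-EB against 17.8 and 24.9 in WT-EB, and to 160 to 2988 FPKM in SPEN-ISC against 1395 to 2550 in WT-ISC. Of these, the peptide hormone genes *CCHa2* rose and *npf* fell in SPEN-EB, and both calls were lost without SPEN-EB replicate 1 (adjusted p of 0.053 and 0.089). *CCHa2* was also lost without WT-EB replicate 1 or without WT-EB replicate 3, and edgeR called neither gene (adjusted p of 0.052 and 0.11). In WT-ISC against WT-EB, 8 of 10 tested enteroendocrine genes were higher in WT-ISC and 0 lower, beside 2.41% of all tested genes that were higher. In SPEN-ISC against SPEN-EB, 4 of 8 were higher in SPEN-ISC and 0 lower, beside 0.704% of all tested genes called in either direction. Sums over 15 visceral muscle, 12 fat body and 10 germline genes were at most 23.5, 27.3 and 3.94 FPKM in any library, and over 9 Malpighian tubule genes at most 37.7 FPKM. The part of any of these cell types in the lipase values was not tested.

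The genes whose pattern over the 11 libraries was most like the mean of the 8 tested lipases were *CG31087* (Pearson r = 0.94), *CG4741* (r = 0.93), *CG10592* (r = 0.91), *veil* (r = 0.91) and *CG14630* (r = 0.90), among 6247 other genes with a mean of at least 1 FPKM. The 11 points share the scaling of each library and fall into 4 groups. Within groups, after each group mean was taken out, r was between 0.76 and 0.90 for these genes. *CG31087* had 3.55 to 7.47 FPKM in SPEN-EB, against 0.447 and 0.703 FPKM in WT-EB, and *veil* had 4.42 to 9.96 FPKM in SPEN-EB, against 0.420 and 0.774 FPKM in WT-EB. In SPEN-ISC *CG31087* had 3.85 to 8.28 FPKM, against 2.37 to 5.21 FPKM in WT-ISC. WT-EB was the lowest group of both genes, which their choice by likeness to the lipase mean made likely.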

How the data were processed

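Libraries were made from RNA of cells sorted after elastase dissociation of whole midguts. Libraries were enriched for polyA RNA, with a ribosomal RNA removal kit per the labels and with oligo-dT beads per the study's methods. The authors aligned paired reads with TopHat 2.0.6 to genome r5.54, keeping 1 position per read, and counted them per gene and exon bin by strand on BDGP5 genes. The deposited gene table holds FPKM, and the deposited exon table holds read counts per exon bin, whose sums gave depth. A read that spans several bins can be counted in each, so such sums are not numbers of reads. Tables of the authors' fold changes and p-values, 16 more columns with values per sample and 8 with group means were set aside. The labels call the replicates biological.

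The design allowed for gene counts, but the gene table holds FPKM, so limma 3.58.1 (R 4.3.3, statmod 1.5.0, variance trend, robust prior) was run on log2(FPKM + 0.5) after scaling by a trimmed mean of log ratios (30% of ratios and 5% of levels trimmed). Genes were kept if as many libraries as in the smaller group reached 1 FPKM after scaling. That this applies to scaled values, rather than those in the file, was decided after values had been seen. Each pair was fitted on its own libraries and the interaction on all 11, with Benjamini-Hochberg adjustment over all tested genes at 0.05. The scripts were tested on simulated data. Alternatives were other pseudocounts, filters and scalings, edgeR 4.0.16 and DESeq2 1.42.0 on summed exon counts, a replicate block, 1 fit of all libraries and leaving out each library. Tables and figures used Python 3.11.15, pandas 2.3.3 and matplotlib 3.10.9.

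The members and gene lists were chosen with earlier results of these data known. All 9 members are named. Of the other lists, the 3 genes with the smallest p in SPEN-EB against WT-EB, or those that passed there, could be named, with the neighbours of the cluster and the 5 genes of most similar pattern. Promoter and protein sequences were not used here.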

Additional observations from a re-analysis of the deposited data

How the results depend on the processing

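Of 681 values of single lipases under an alternative, 617 kept their direction and their side of the threshold, 12 lost a call, 16 gained one and 36 changed sign. In SPEN-EB against WT-EB, 3 lipases passed, but 1 (*CG17192*) without a filter on low values, 5 without scaling, 0 with all 11 libraries in one fit, and 1 to 3 when a library was left out. Without the filter, 10860 genes were tested. In WT-ISC against WT-EB, 0 passed, but 1 (*CG6295*) with a filter at 5 FPKM, 2 with DESeq2, 0 to 2 with a library left out, and 4 with a replicate block (*CG6295*, *CG17192*, *CG6283* and *mag*). The counts for the other 3 comparisons were 0 under every alternative run. The cause of these changes was not tested.

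Deviations of same-numbered libraries from their group means had correlations of 0.04 and 0.09 in SPEN-EB against WT-EB, 0.23, −0.39 and 0.13 in SPEN-ISC against WT-ISC, 0.09 and 0.05 in WT-ISC against WT-EB and −0.60, 0.63 and −0.13 in SPEN-ISC against SPEN-EB. With 2 WT-EB libraries the deviations mirror each other, so these values cannot settle pairing. The paper describes sorting ISCs and EBs at the same time, but does not say that replicate numbers mark shared guts. The numbers were not taken as pairing. With a replicate block, 680, 34, 257 and 69 genes passed in these comparisons, against 372, 7, 194 and 44 without, and *CG31091* had a log2 difference of −0.011 in WT-ISC against WT-EB.

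Counts over all genes moved as well. In SPEN-EB against WT-EB, 39 genes passed without a filter, 967 without scaling, 122 in edgeR, 697 in DESeq2, 49 in the fit of all libraries and 104 to 965 with a library left out. In SPEN-ISC against WT-ISC these counts were 0, 2, 0, 36, 18 and 1 to 40. In WT-ISC against WT-EB they were 21, 97, 85, 353, 118 and 78 to 1965, and in SPEN-ISC against SPEN-EB 2, 71, 20, 160, 74 and 24 to 81.

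Signs of values that did not pass depended on single libraries. Log2 differences with a library left out ranged in SPEN-EB against WT-EB over −0.83 to 2.34 for *CG6283* and −0.14 to 1.15 for *bmm*. In SPEN-ISC against WT-ISC they ranged over −0.44 to 1.23 for *CG6295*, −0.021 to 1.65 for *CG17192*, −0.76 to 0.40 for *CG6277*, −0.64 to 0.39 for *CG6271*, −0.68 to 1.22 for *mag* and −0.10 to 0.53 for *CG8093*. In WT-ISC against WT-EB the ranges were −0.68 to 2.47 for *CG6283*, −0.20 to 1.07 for *CG6277*, −0.017 to 0.48 for *CG8093* and −0.67 to 0.98 for *CG31091*. In SPEN-ISC against SPEN-EB they were −0.74 to 0.57 for *CG6295*, −0.69 to 0.26 for *CG17192*, −0.60 to 0.17 for *CG6277*, −0.33 to 0.44 for *CG6271*, −0.53 to 0.012 for *CG8093* and −0.54 to 0.17 for *CG31091*. For the effect in EBs minus that in ISCs they were −0.011 to 3.13 for *CG6283*, −0.071 to 1.78 for *mag* and −0.47 to 1.26 for *CG31091*. Without scaling, the sign changed in SPEN-ISC against WT-ISC for *CG6277* (0.029) and *CG6271* (0.054), in SPEN-ISC against SPEN-EB for *CG6295* (0.22), *CG6271* (0.18), *CG8093* (0.092) and *CG31091* (0.025), and in SPEN-EB against WT-EB for *CG17292* (0.25). On exon counts, *mag* had −0.34 in edgeR and −0.33 in DESeq2 in SPEN-ISC against WT-ISC, and *CG6295* had 0.081 in edgeR and 0.10 in DESeq2 in SPEN-ISC against SPEN-EB. A filter on FPKM as deposited, added after the data were seen, changed no call of the 9 genes.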
